A study of Mus musculus with 8 samples.

Results

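The translation initiation factor genes are the mouse genes whose symbols begin with Eif followed by a digit from 1 to 6, the genes of the eukaryotic initiation factors and of proteins named with them. Members were taken as protein-coding rows of the deposited gene table with a mean normalized read count of at least 1 over the 8 libraries, without Eif2ak2, Eif4ebp1 and Eif2s3y. This gave 51 members of 23045 genes in the table. All 51 passed the filter on low values and were tested, 49 of them with a mean of at least 10. The question is whether the transcripts of the machinery that starts protein synthesis differ between hearts that keep and hearts that lose METTL3, the methyltransferase that writes N6-methyladenosine (m6A) on RNA, in their cardiomyocytes.

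Heart libraries, 4 WT and 4 Mettl3 KO, were compared by RNA-seq of total RNA. The labels number the libraries of a genotype but do not say that each came from a separate animal, so p-values measure the spread between these libraries. Both groups carried the loxP-flanked allele (Mettl3lox/lox). Mettl3 KO mice had in addition αMHC-MerCreMer, a tamoxifen-activated Cre recombinase driven by a promoter of heart muscle cells, so other cells of the heart keep the gene. WT mice lacked the transgene, and an effect of Cre cannot be told apart from that of the deletion. Per the study's methods, mice of both genotypes were 10 to 16 weeks old and received tamoxifen at 100 µg per g of body weight on 7 days. The mice are described as C57Bl6. The interval between tamoxifen and collection was not found in the sources used here.

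Initiation begins when eIF2, carrying GTP and the initiator tRNA, joins the small ribosomal subunit together with eIF1, eIF1A, eIF3 and eIF5. The eIF4F complex, made of the cap-binding protein eIF4E, the scaffold eIF4G and the helicase eIF4A, brings this assembly to the capped end of the mRNA, and eIF5B joins the large subunit once the start codon is found. Control acts mainly at phosphorylation of eIF2, which blocks its exchange factor eIF2B, and at the 4E-BP proteins, which hold eIF4E. eIF3 has also been described as an m6A-binding factor, and METTL3 as a partner of its subunit eIF3h. The transcript levels measured here say nothing of phosphorylation or of ribosome loading.

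Summed normalized read counts were 2839589 to 2916986 per library, which stand for 2631305 to 3062476 reads, as worked out from the steps between low values. Mettl3 had 105, 133, 118 and 107 normalized read counts in WT hearts and 74, 68, 69 and 78 in Mettl3 KO hearts (log2 fold change -0.67 with SE 0.10, limma adjusted p = 0.000184), in the direction of the labels. All pairs of libraries differed by more than counting error, with a chi-square per degree of freedom of 1.12 to 1.95 within a genotype. Among cell type markers, none of 6 cardiomyocyte, 6 macrophage, 5 smooth muscle and pericyte, 5 blood and 4 lymphocyte genes had a limma adjusted p under 0.05. Fibroblast genes were higher in Mettl3 KO hearts for 7 of 8 markers (summed 3648 to 4172 in WT, 4711 to 5671 in Mettl3 KO), and endothelial genes lower for 4 of 8 (4327 to 4573, and 3755 to 4143). Atrial genes were higher for 5 of 5 (192 to 432, and 598 to 1392), with Bmp10 at 0 in every WT library and in Mettl3 KO replicate 1. In that Mettl3 KO library Myl7 (23), Myl4 (113) and Sln (10) also lay within the WT values, and Nppa (452) lay above them.

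Of the 51 members, 1 had a limma adjusted p under 0.05, Eif1a, which was higher in Mettl3 KO hearts, and none was lower. This is 1.96% of the members. Over all 20313 genes tested 7.91% passed, 4.72% as higher and 3.19% as lower, and among the 13795 with a mean of at least 10 it was 11.0%. Before adjustment 6 members (11.8%) had p under 0.05, against 20.6% of all genes tested. Values of the genotypes did not overlap for 3 members (5.88%), Eif1a, Eif4g2 and Eif4e3, against 11.5% of all genes tested. No test of these shares was made. The median absolute log2 fold change was 0.07 over the members, 0.17 over all genes tested and 0.13 over those with a mean of at least 10. Among the 49 members with a mean of at least 10, log2 fold changes lay between -0.23 (Eif6) and 0.38 (Eif1a). The members were measured at higher levels than most genes, with a median mean of 208.8 normalized read counts against 38.6 over all genes tested, and both the share that passes and the size of fold changes vary with level.

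**Figure D1:**
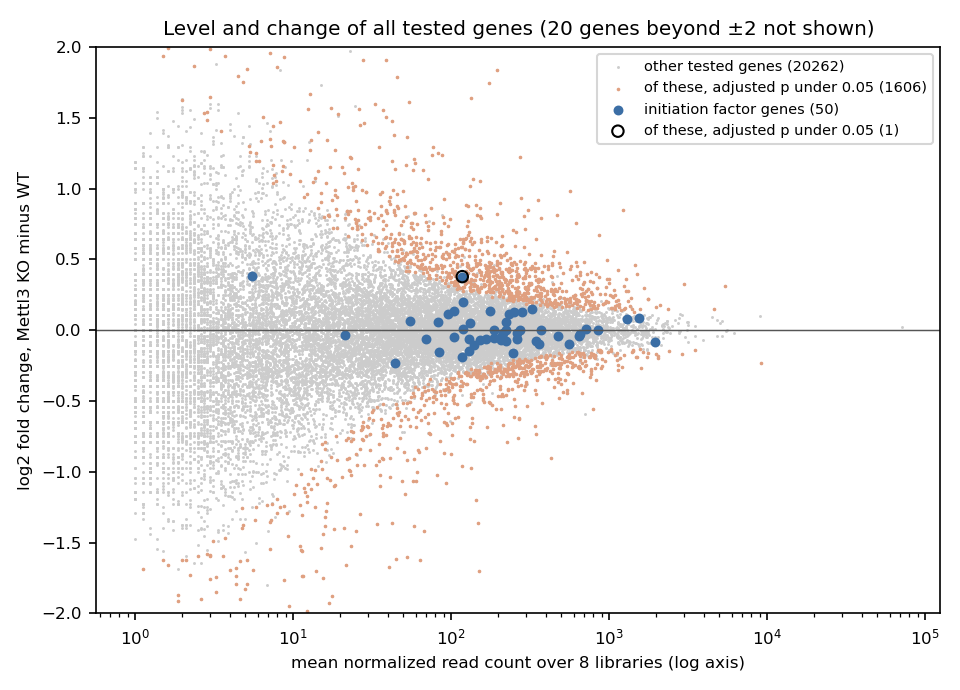
Each point is a gene, with its mean normalized read count over the 8 libraries (log axis) against its log2 fold change between Mettl3 KO and WT hearts. The initiation factor genes (blue, 50 drawn, without Eif4ebp3, which averaged less than 3 reads in both groups) sit close to 0, and the circled point above the others at its level is Eif1a.

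The intervals show what sizes of change the data leave room for in whole heart tissue. They do not limit a change within cardiomyocytes alone, since the other cells of the heart keep Mettl3 and add to the same values. For 40 of the 51 members the 95% confidence interval of the fold change lay within 0.32 of 0 on the log2 scale, and for 49 within 0.58, a change of 1.5-fold in either direction. Among all tested genes with a mean of at least 10 these limits held for 41.0% and 73.8%, a comparison that is not matched on level. Eif3j2 and Eif4ebp3, which had a mean under 10, were the exceptions at 1.5-fold. Summed over the 51 members the normalized read counts were 15872, 16097, 15947 and 16250 in WT hearts against 16252, 15956, 16194 and 15609 in Mettl3 KO hearts, which overlapped, and the Mettl3 KO mean was 99.8% of the WT mean. The members held 0.550% to 0.567% of each library.

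**Figure D2:**
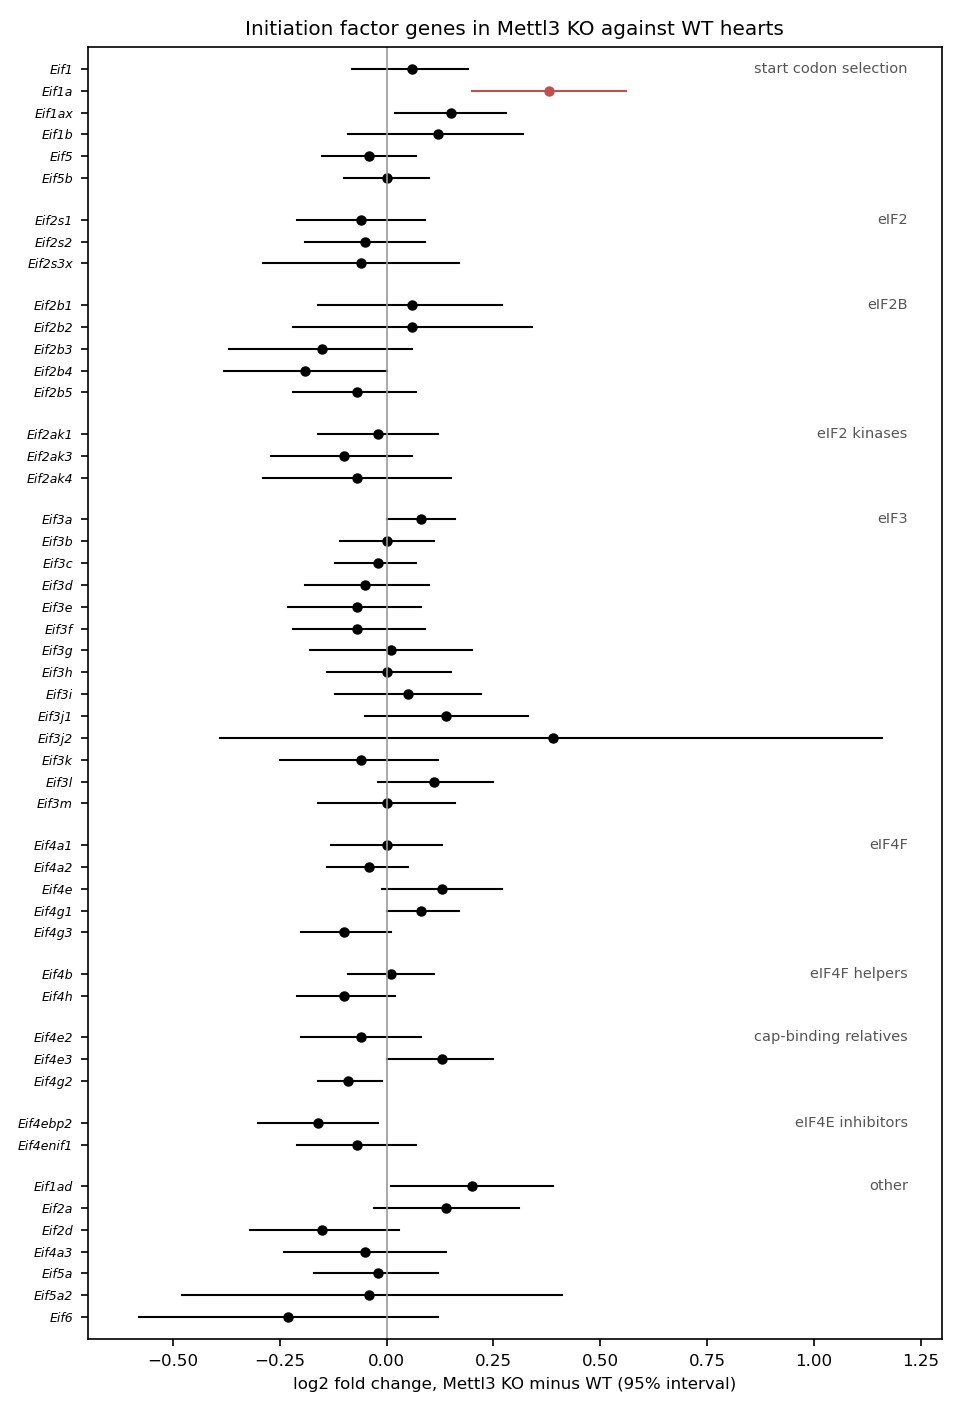
Log2 fold change (point) and 95% interval (line) of each initiation factor gene, grouped by role, for 4 Mettl3 KO against 4 WT heart libraries. Eif1a (red) is the gene with an adjusted p under 0.05, and the widest interval is that of Eif3j2, from -0.39 to 1.16. Eif4ebp3 is not drawn.

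Among the members with a mean of at least 10, the largest log2 fold change was that of Eif1a, which codes for eIF1A, a small protein that sits in the decoding site of the small ribosomal subunit while it scans for the start codon. The mouse also has an X-linked gene of eIF1A, Eif1ax. Eif1a (ENSMUSG00000057561, mm39 chromosome 18, 46730768 to 46749523, plus strand) had 113, 103, 98 and 97 normalized read counts in WT hearts and 139, 141, 128 and 127 in Mettl3 KO hearts. Every Mettl3 KO library was above every WT library. The mean rose to 134 ± 7.27 from 103 ± 7.32 (SD, n = 4). This was a log2 fold change of 0.38 (95% interval 0.20 to 0.56, limma adjusted p = 0.00830). It passed in each of 18 alternative analyses, with values from 0.35 to 0.42 and adjusted p from 0.00682 to 0.0377.

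Eif1ax (ENSMUSG00000067194, chromosome X, 158155174 to 158172924, plus strand) had 288, 307, 335 and 316 in WT hearts against 321, 368, 351 and 343 in Mettl3 KO hearts. The groups overlapped at the lowest Mettl3 KO and the highest WT values. Its log2 fold change of 0.15 (95% interval 0.02 to 0.28) did not pass (limma adjusted p = 0.161, 0.0782 to 0.392 over the alternatives). Added together, both genes gave 401, 410, 433 and 413 in WT hearts against 460, 509, 479 and 470 in Mettl3 KO hearts, without overlap, and the Mettl3 KO mean was 116% of the WT mean. The ratio of Eif1a to Eif1ax was 0.392, 0.336, 0.293 and 0.307 in WT hearts against 0.433, 0.383, 0.365 and 0.370 in Mettl3 KO hearts, and these overlapped. Per kb of exon, Eif1a was the less abundant of the pair, with 24.7 ± 1.76 against 59.2 ± 3.71 normalized read counts (SD, n = 4, WT). Reads that fit several places had been left out by the authors. Of the 72-base windows of the longest Eif1a transcript, 1.90% also occurred in a transcript of another gene, and none of those of Eif1ax did. Shared windows made up 26.2% for Eif1, 22.9% each for Eif2s2 and Eif3m, 17.4% for Eif3h and 14% for Eif4a3. They made up 9.74% for Eif4e3 and 9.41% for Eif3e. The levels of these genes are uncertain to that extent. Genes other than the members, such as Eef1a1 and Mcts2, were not searched for shared windows.

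The difference in Eif1a occurred beside the shifts in fibroblast, endothelial and atrial markers given above, whose part in it was not tested. Mettl3 KO replicate 1 had 139 for Eif1a. Of its atrial genes, Myl7, Myl4, Sln and Bmp10 lay within the WT values and Nppa (452) lay above them. The summed fibroblast markers were above the WT range in every Mettl3 KO library. A link of Eif1a to these markers was not tested. In bulk tissue, a change in the cells present and a change of RNA per cell cannot be told apart.

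**Figure D3:**
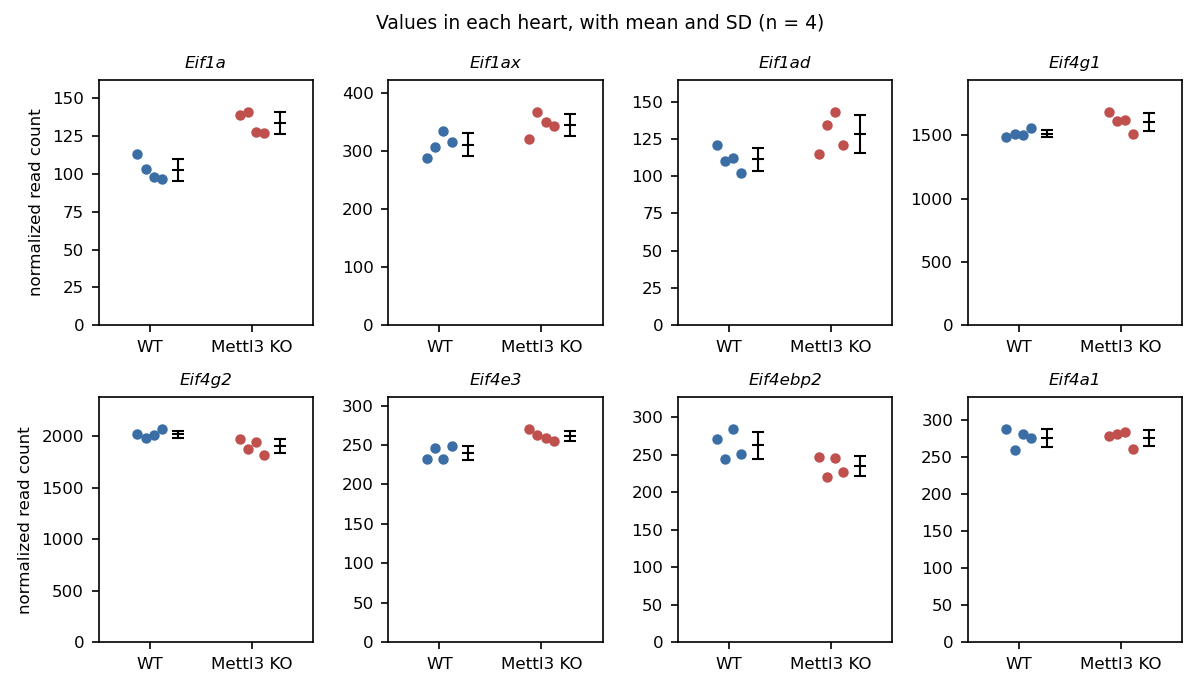
Normalized read counts of 8 initiation factor genes in each WT (blue) and Mettl3 KO (red) heart library, with the mean and SD (n = 4) beside each group and axes that start at 0. The Eif1a values of Mettl3 KO hearts, 127 to 141, lie above all WT values, whereas Eif4a1 has a mean of 275 in both groups.

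The other genes of start codon selection and subunit joining, and Eif1ad, did not pass. Eif1, which keeps the scanning ribosome open until the start codon is met, had 223, 210, 219 and 227 in WT hearts against 226, 228, 240 and 220 in Mettl3 KO hearts. Its log2 fold change was 0.06 (95% interval -0.08 to 0.19), or 0.03 with either WT replicate 2 or Mettl3 KO replicate 3 left out. Its close paralogue Eif1b had 92.3 ± 8.42 in WT hearts against 99.8 in Mettl3 KO hearts (SD, n = 4). Eif5, the factor that makes eIF2 split its GTP, had 486 ± 20.6 and 472 ± 20.5. Eif5b, the GTPase that joins the ribosomal subunits, had the same mean of 859 in both genotypes, with 818, 881, 852 and 884 in WT hearts against 866, 811, 926 and 832 in Mettl3 KO hearts, and an interval of -0.10 to 0.10 on the log2 scale. Eif1ad, which codes for a protein with an eIF1A-like domain and no known part in the initiation complex, had 121, 110, 112 and 102 in WT hearts against 115, 134, 143 and 121 in Mettl3 KO hearts. The groups overlapped, and the log2 fold change of 0.20 (95% interval 0.01 to 0.39) did not pass (limma adjusted p = 0.217).

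None of the 3 eIF2 subunit genes passed. Eif2s1 codes for the α subunit that stress kinases phosphorylate, and had 184, 202, 176 and 205 in WT hearts against 187, 187, 182 and 179 in Mettl3 KO hearts (log2 fold change -0.06, 95% interval -0.21 to 0.09). Eif2s2, the β subunit, had 212 ± 12.8 and 205 ± 5.38 (SD, n = 4). Eif2s3x, the X-linked gene of the γ subunit that binds GTP and initiator tRNA, had 71.5 ± 6.14 and 68.5 ± 4.04, and 35.8% of its transcript windows were shared with another gene, so its level is uncertain. The log2 fold changes of the 3 genes lay between -0.06 and -0.05, and over the alternatives between -0.11 and -0.01. Eif2s3y, its Y-linked copy and outside the rule, had 199, 374, 315 and 291 in WT hearts against 323, 249, 371 and 301 in Mettl3 KO hearts (log2 fold change 0.10, limma adjusted p = 0.754).

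Of the 5 genes of eIF2B, which recharges eIF2 with GTP, none passed. Eif2b4 (δ subunit) had the lowest fold change of the complex, with 119, 140, 132 and 113 in WT hearts against 108, 106, 120 and 107 in Mettl3 KO hearts. These overlapped, and the log2 fold change was -0.19 (95% interval -0.38 to 0.00, limma adjusted p = 0.249). Eif2b5, the catalytic ε subunit, had 230 ± 12.3 in WT hearts against 219 ± 14.7 in Mettl3 KO hearts (SD, n = 4), and Eif2b3 (γ subunit) 89.3 ± 7.18 and 80.3 ± 6.55. The log2 fold changes of Eif2b1 and Eif2b2, the α and β subunits, were both 0.06. Over the alternatives they ran from 0.01 to 0.12 for Eif2b1 and from 0.01 to 0.16 for Eif2b2. Per kb of exon, Eif2b5 was the most abundant of the complex in WT hearts, at 88.5 ± 4.72, and Eif2b3 the least, at 13.7 ± 1.10 (SD, n = 4).

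The eIF2 kinases stop initiation under stress. Eif2ak1, the heme-regulated kinase, had 264 ± 20.9 in WT hearts against 261 ± 11.6 in Mettl3 KO hearts (SD, n = 4). Eif2ak3, the kinase PERK of the endoplasmic reticulum, had 132, 151, 147 and 149 in WT hearts against 140, 128, 135 and 136 in Mettl3 KO hearts (log2 fold change -0.10, 95% interval -0.27 to 0.06). Eif2ak4, the amino acid sensor GCN2, had 157 ± 19.8 and 150 ± 23.7. None of the 3 passed, and log2 fold changes lay between -0.10 and -0.02. Eif2ak2, the RNA-activated kinase PKR and outside the rule, had a log2 fold change of 0.04 (limma adjusted p = 0.841).

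eIF3 is the largest initiation factor, a scaffold on the small subunit that contacts both eIF4G and the mRNA. None of its 14 genes passed, and their median log2 fold change was 0.00. Eif3a, the RNA-binding core subunit, had 1183, 1276, 1294 and 1292 in WT hearts against 1372, 1339, 1338 and 1280 in Mettl3 KO hearts. WT replicate 1 was the lowest and the groups overlapped at 1280 to 1294 (log2 fold change 0.08, 95% interval 0.00 to 0.16, limma adjusted p = 0.276). Without that replicate the log2 fold change was 0.05 (limma adjusted p = 0.614). Eif3h, the subunit described as a partner of METTL3, had 224, 243, 217 and 211 in WT hearts against 225, 205, 243 and 224 in Mettl3 KO hearts, a log2 fold change of 0.00 (95% interval -0.14 to 0.15).

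Eif3b, a core subunit, had 372 ± 14.4 and 372 ± 8.50 (SD, n = 4), and Eif3c 659 ± 21.1 and 648 ± 28.9. Eif3d, a subunit that can bind the cap itself, had 213 ± 13.2 and 206 ± 7.41. Eif3e had 384, 320, 347 and 364 in WT hearts against 359, 373, 285 and 331 in Mettl3 KO hearts, with Mettl3 KO replicate 3 the lowest. Eif3l was the subunit gene with the highest log2 fold change after those of the j subunit, 0.11 (95% interval -0.02 to 0.25), from 225 ± 9.46 to 244 ± 10.7. The remaining subunit genes Eif3f, Eif3g, Eif3i, Eif3k and Eif3m had log2 fold changes between -0.07 and 0.05.

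The loosely bound j subunit has 2 genes. Eif3j1 had 111, 91, 94 and 101 in WT hearts against 112, 106, 111 and 107 in Mettl3 KO hearts (log2 fold change 0.14, limma adjusted p = 0.451). Eif3j2 had 5, 3, 3 and 8 and 4, 8, 6 and 7. Of the transcript windows of Eif3j2, 88.0% were shared with another gene, nearly all of them with Eif3j1, so both levels are uncertain. Leaving out Eif3j2, the subunit genes spanned, per kb of exon, 17.0 ± 1.52 (Eif3j1) to 188 ± 6.00 (Eif3c) normalized read counts (SD, n = 4, WT), with Eif3a at 144 ± 6.05, Eif3h at 139 ± 8.62 and Eif3b at 111 ± 4.32 below Eif3c.

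**Figure D4:**
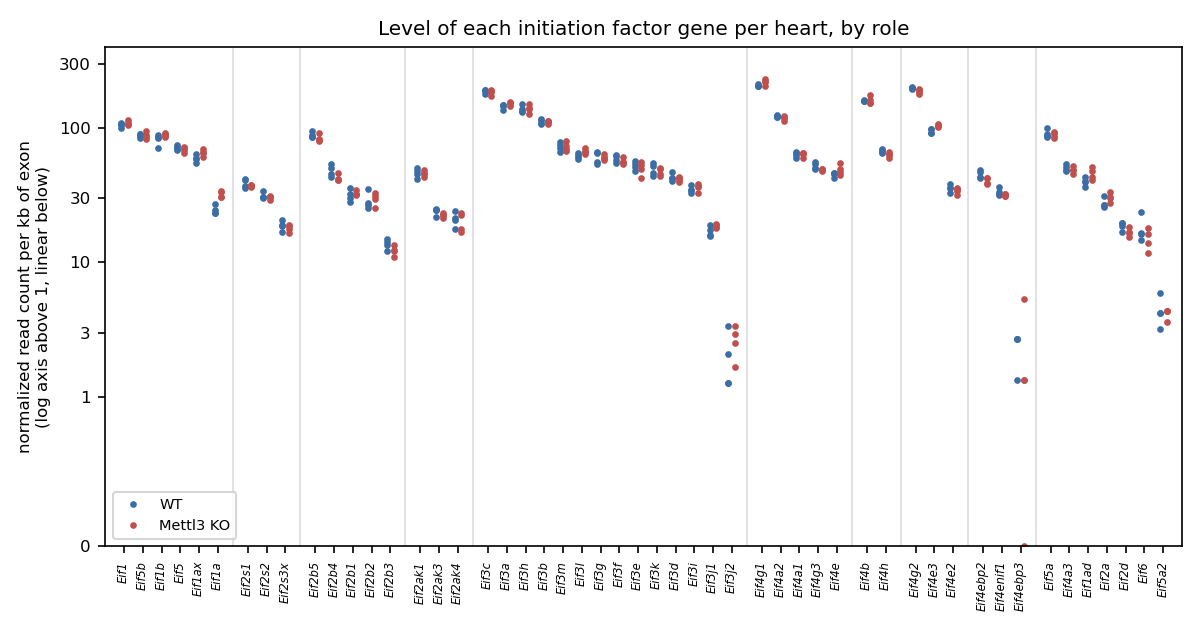
Normalized read counts per kb of exon in each WT (blue) and Mettl3 KO (red) heart library, ordered within each role group by the WT mean (log axis above 1, linear below). Levels within the eIF3 group run from 188 for Eif3c to 17.0 for Eif3j1 and 2.00 for Eif3j2, and the genotypes do not overlap for Eif1a, Eif4g2 and Eif4e3.

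eIF4F is the cap-binding complex. Eif4g1, its main scaffold, had 1488, 1507, 1502 and 1557 in WT hearts against 1685, 1613, 1619 and 1507 in Mettl3 KO hearts. Mettl3 KO replicate 4 lay within the WT values and the other 3 above them (log2 fold change 0.08 with SE 0.04, limma adjusted p = 0.218, 0.0816 to 0.408 over the alternatives). Its paralogue Eif4g3 had 551, 596, 618 and 561 in WT hearts against 551, 534, 543 and 547 in Mettl3 KO hearts, a log2 fold change of -0.10 (95% interval -0.20 to 0.01). Eif4e, the cap-binding protein, had 276, 276, 254 and 271 in WT hearts against 270, 297, 284 and 329 in Mettl3 KO hearts (log2 fold change 0.13, 95% interval -0.01 to 0.27, and 0.07 without Mettl3 KO replicate 4). The helicase gene Eif4a1 had 287, 259, 280 and 275 in WT hearts against 278, 280, 283 and 260 in Mettl3 KO hearts, with equal means of 275 and an interval of -0.13 to 0.13. A processed pseudogene shared 63.1% of the Eif4a1 transcript windows, so this level is uncertain.

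Eif4a2, the other eIF4A helicase, had 655 ± 12.6 and 635 ± 20.8 (SD, n = 4). The ratio of Eif4a1 to Eif4a2 was 0.446, 0.394, 0.433 and 0.410 in WT hearts against 0.431, 0.439, 0.434 and 0.430 in Mettl3 KO hearts. The helicase cofactors Eif4b (713 ± 7.89 and 720 ± 50.3) and Eif4h (375 ± 11.1 and 351 ± 15.2) did not pass either, at log2 fold changes of 0.01 and -0.10.

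Eif4g2 codes for DAP5, an eIF4G relative that lacks the eIF4E binding site and serves cap-independent initiation. It had the highest normalized read counts of all members, with 2018, 1979, 2006 and 2066 in WT hearts against 1968, 1879, 1941 and 1816 in Mettl3 KO hearts. The groups did not overlap, although the highest Mettl3 KO and the lowest WT value were 1968 and 1979. The difference was small, at 94.2% of the WT mean (log2 fold change -0.09, 95% interval -0.16 to -0.01), and did not pass (limma adjusted p = 0.161, 0.0596 to 0.346 over the alternatives). The ratio of Eif4g1 to Eif4g2 was 0.737, 0.761, 0.749 and 0.754 in WT hearts against 0.856, 0.858, 0.834 and 0.830 in Mettl3 KO hearts, which did not overlap. This ratio was chosen after its values were seen and was not tested. Among the ratios of paralogues worked out, it was the only one without overlap. That of Eif4g1 to Eif4g3 ran from 2.43 to 2.775 in WT hearts and from 2.755 to 3.058 in Mettl3 KO hearts.

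Eif4e3, a cap-binding relative of eIF4E, had 232, 246, 232 and 249 in WT hearts against 270, 263, 259 and 255 in Mettl3 KO hearts. Every Mettl3 KO value was above every WT value, but the log2 fold change of 0.13 (SE 0.06) did not pass (limma adjusted p = 0.247, 0.178 to 0.419 over the alternatives). Eif4e2, the repressive cap-binding protein 4EHP, had 267, 269, 285 and 246 in WT hearts against 254, 239, 263 and 267 in Mettl3 KO hearts. Summed over Eif4g2, Eif4e2 and Eif4e3, WT libraries had 2494 to 2561 and Mettl3 KO libraries 2338 to 2492, so the groups did not overlap but nearly touched. Most of this sum is Eif4g2, and Eif4e3 differed in the opposite direction. Among the proteins that bind eIF4E and hold it back, Eif4ebp2 had 271, 245, 284 and 251 in WT hearts against 247, 220, 246 and 227 in Mettl3 KO hearts. The groups overlapped at 245 to 247, and the log2 fold change of -0.16 (95% interval -0.30 to -0.02) did not pass (limma adjusted p = 0.177).

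Eif4ebp1, the better known 4E-BP and outside the rule, had 104, 100, 108 and 112 in WT hearts against 109, 125, 116 and 109 in Mettl3 KO hearts (log2 fold change 0.11, limma adjusted p = 0.543). Eif4enif1, the eIF4E transporter, had 213 ± 12.2 and 203 ± 3.56 (SD, n = 4). Eif4ebp3 was listed at 1, 2, 2 and 2 in WT hearts against 0, 1, 1 and 4 in Mettl3 KO hearts, and a difference was not detectable at this depth, where a count of 0 allows up to 3 reads, or 2.78 to 3.33 normalized read counts depending on the library. This floor covers counting error only. Summed over Eif4ebp2, Eif4enif1 and Eif4ebp3, WT libraries had 474, 454, 516 and 467 and Mettl3 KO libraries 447, 421, 452 and 438, where the lowest WT value was 454 and the highest Mettl3 KO value 452, and no test of these sums was made. Of the transcript windows of Eif4ebp3, 64.3% were shared with another gene, so its level is also uncertain for that reason.

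To show a feature of sequence that the choice of members did not use, the 100 bases before annotated transcription starts were searched for the E-box CACGTG, the site of MYC and related factors, which reads the same on both strands, and for CCGGAAG, the core of ETS factor sites, on both strands. RefSeq promoters of GRCm38.p6 matched 41 members by symbol, with 54 starts, some of which overlap. The E-box stood in 7 of 54 member windows (13.0%) and in 3.17% of all 32851, and CCGGAAG in 8 (14.8%) and in 4.52%. The 32851 windows were not matched to the members on level, and no test of these shares was made. Of the eIF4F genes, Eif4e and Eif4g1 were the ones found with an E-box. A match is a description of the letters only. Eif4e has another start, whose window (chr3:138526091-138526190, plus strand) held neither motif. The E-box windows of the eIF4F genes Eif4e (chr3:138527168-138527267, plus strand) and Eif4g1 (chr16:20672627-20672726, plus strand) are given with the E-box in capitals because they code for the cap-binding protein and its scaffold, next to that of the inhibitor gene Eif4ebp2 (chr10:61452670-61452769, minus strand), which held neither motif.
Eif4e: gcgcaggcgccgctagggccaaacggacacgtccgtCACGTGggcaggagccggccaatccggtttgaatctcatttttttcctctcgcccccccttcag
Eif4g1: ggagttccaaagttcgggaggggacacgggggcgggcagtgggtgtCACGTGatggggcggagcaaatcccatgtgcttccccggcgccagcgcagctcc
Eif4ebp2: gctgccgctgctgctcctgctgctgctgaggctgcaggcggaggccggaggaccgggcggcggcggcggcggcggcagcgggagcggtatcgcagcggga

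The remaining members carry the eIF name but act elsewhere or by other routes. Eif2a, which can bring initiator tRNA without eIF2, had 165, 192, 158 and 163 in WT hearts against 170, 204, 189 and 183 in Mettl3 KO hearts (log2 fold change 0.14, or 0.09 with Mettl3 KO replicate 2 left out, limma adjusted p = 0.361 with all libraries). Eif2d, which acts in reinitiation and ribosome recycling, had 138 ± 9.22 and 124 ± 8.30 (SD, n = 4), a log2 fold change of -0.15 (limma adjusted p = 0.355). Eif4a3, the helicase of the exon junction complex, had 107 ± 5.29 and 103 ± 5.74. Eif5a, the hypusine-bearing factor that helps ribosomes through stalling sequences, had 216 ± 15.4 and 212 ± 10.1, and its paralogue Eif5a2 22.0 ± 5.83 and 21.0 ± 2.00. Eif6, which keeps free large subunits from joining, had 44, 40, 45 and 64 in WT hearts against 32, 44, 49 and 38 in Mettl3 KO hearts, with a log2 fold change of -0.23 and a wide interval of -0.58 to 0.12. This value rests on single libraries, since it was -0.09 without WT replicate 4 and -0.13 without Mettl3 KO replicate 1.

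Per kb of exon, the members with the highest WT levels were Eif4g1 (207 ± 4.12 normalized read counts), Eif4g2 (198 ± 3.58), Eif3c (188 ± 6.00) and Eif4b (160 ± 1.77), each SD with n = 4. Exon lengths are those of all annotated isoforms merged, so a gene with a rarely used long exon appears lower. The base run GGACT, a common core of m6A sites, was absent from the longest transcripts of 4 of the 51 members, Eif2s2, Eif3g, Eif3k and Eif4ebp3. Its density was 1.05 per kb in Eif1a and had a median of 1.18 per kb over the members (0 to 2.67), against 1.05 per kb over 14322 protein-coding genes tested. A match does not show that a site is methylated.

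Regulators of initiation outside the family were read from a list of 37 genes, all of them tested, of which 3 were higher and 3 lower in Mettl3 KO hearts. Over all genes tested 4.72% were higher and 3.19% lower, and among those with a mean of at least 10 the share that passed was 11.0%, with no test of the list against them. Ythdf1, an m6A reader described to promote translation through eIF3, had 167, 142, 156 and 134 in WT hearts against 203, 188, 227 and 199 in Mettl3 KO hearts, without overlap (log2 fold change 0.45 with SE 0.08, limma adjusted p = 0.00122). The genes of the tuberous sclerosis complex, which restrains mTORC1 and thereby the phosphorylation of 4E-BPs, went in opposite directions. Tsc1 had 409, 415, 402 and 411 in WT hearts against 469, 478, 506 and 493 in Mettl3 KO hearts, without overlap (log2 fold change 0.25 with SE 0.05, limma adjusted p = 0.00255). Tsc2 had 612, 625, 607 and 590 in WT hearts against 549, 503, 545 and 491 in Mettl3 KO hearts, also without overlap (log2 fold change -0.22 with SE 0.05, limma adjusted p = 0.00680).

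Mknk2, a kinase that phosphorylates eIF4E, fell by 0.22 on the log2 scale (limma adjusted p = 0.0296), from 329 ± 20.8 to 282 ± 12.3 (SD, n = 4), without overlap. Ppp1r15a, the stress-induced partner of the phosphatase that acts on eIF2α, fell by 0.34 (limma adjusted p = 0.0260), with 143, 163, 198 and 185 in WT hearts against 135, 143, 121 and 140 in Mettl3 KO hearts, which met at 143. Mcts2, a retrogene copy of the reinitiation factor gene Mcts1, rose by 0.61 (limma adjusted p = 0.0360), with 28, 38, 23 and 26 in WT hearts against 54, 40, 37 and 46 in Mettl3 KO hearts and overlap. The call of Mknk2 was lost in 6 of 18 alternatives, without WT replicates 2, 3 or 4 or Mettl3 KO replicates 1, 2 or 4 (limma adjusted p up to 0.104). With 1 library left out, that of Ppp1r15a was lost without WT replicates 3 or 4 or Mettl3 KO replicates 3 or 4 (limma adjusted p up to 0.115), and that of Mcts2 without WT replicates 1, 3 or 4 or Mettl3 KO replicates 1, 2 or 4 (limma adjusted p up to 0.103). In a list of 18 elongation and termination factor genes, all tested, 1 passed, against 7.91% of all genes tested. It was Eef1a1, the factor that delivers tRNA to the ribosome, which had 322, 334, 325 and 376 in WT hearts against 401, 382, 397 and 399 in Mettl3 KO hearts (log2 fold change 0.22, limma adjusted p = 0.0214). It lost the call without WT replicates 1, 2 or 3 or Mettl3 KO replicates 3 or 4 (limma adjusted p up to 0.0804).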

How the data were processed

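RNA-seq of total RNA (stranded library, 72-base single-end reads) was performed on 8 mouse heart libraries. Per the study's methods and the submitters' processing notes (Trimmomatic 0.39, STAR 2.7.11a, Picard 3.1.1, featureCounts 2.0.4, DESeq2 1.36.0, mm39), the authors removed duplicate, multi-mapping, ribosomal and mitochondrial reads, counted exonic reads by strand, and deposited DESeq2-normalized counts rounded to whole numbers, treated here as a score and not as raw counts. Library depth was recovered from the spacing of low values.

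Genes with a mean of at least 1 were tested with limma 3.58.1 (R 4.3.3, trend) on log2(value + 1), WT against Mettl3 KO, with Benjamini-Hochberg adjustment over all 20313 genes and a threshold of 0.05. Fold changes on this scale understate those of low genes. The code was tested on simulated data with a dispersion of 0.005 and 200 changed genes. There 12.5% of the genes changed by 0.3 (log2) and 100% of those changed by 1 were recovered. In the real data 1607 genes passed, so these shares check the code and do not measure how many real changes would be found. Alternatives covered the pseudocount, filter, scaling, voom, robust limma, a replicate block and leaving out each library. Followed by name were Mettl3, the 3 Eif genes outside the rule, the genes that passed in lists of initiation regulators and elongation factors, and the members without Eif4ebp3. Members, lists and markers were chosen with earlier results of these data known. Exon lengths and transcripts are those of GENCODE M21 (GRCm38). Coordinates of genes are from the deposited table.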

Additional observations from a re-analysis of the deposited data

Results flagged for a closer look

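A library far from the other 3 of its genotype was found in 4 of 106 gene and genotype groups searched, where chance marks about 1 in 20, or 5.3 groups. The gap to the nearest library, as a share of the group's range, was 1.00 for Eif5a2 in Mettl3 KO hearts (22, 18, 22 and 22 normalized read counts), and 1.00 for Eif4ebp3 in WT hearts (1, 2, 2 and 2). It was 0.838 for Eif3a in WT hearts (1183, 1276, 1294 and 1292) and 0.857 for Eif2b4 in Mettl3 KO hearts (108, 106, 120 and 107). Both gaps of 1.00 rest on ties between rounded values, for which the chance rate of 1 in 20 may not hold.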

How the results depend on the processing

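Of the 51 members, 1 passed in each of the 18 alternatives, Eif1a. Fold changes were followed for the members other than Eif4ebp3, which was under the floor, and for Eif3j2 in 17 alternatives, since its mean was under the filter of 10. Over all genes, 1541 to 1687 passed under other pseudocounts, filters, scalings and limma variants, against 1607. Leaving out a library gave 1019 (without Mettl3 KO replicate 3) to 1596 genes. With the replicate block 1346 genes passed, 1304 of them shared with the 1607, and 1 member. The block took the calls of Ppp1r15a (limma adjusted p = 0.0532) and Mcts2 (limma adjusted p = 0.0528). Libraries of the same number had correlations of 0.07, 0.03, -0.02 and 0.06, and not every library correlated best with its own number, so the numbers were not read as pairs.

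Changes of sign occurred only in genes that did not pass. Scaling to equal sums or by the upper quartile gave -0.01 for Eif3h, Eif3m and Eif4a1 and 0.00 for Eif3g. The median ratio gave 0.00 for Eif3b and Eif5b. Leaving out a library gave -0.07 to 0.02 for Eif2ak1, -0.02 to 0.08 for Eif2ak2, -0.15 to 0.01 for Eif2ak4, -0.08 to 0.22 for Eif2s3y, -0.02 to 0.02 for Eif3b, -0.05 to 0.01 for Eif3c, -0.13 to 0.00 for Eif3e, -0.04 to 0.06 for Eif3g, -0.04 to 0.04 for Eif3h, Eif3m and Eif4b, -0.03 to 0.03 for Eif4a1, -0.05 to 0.03 for Eif5a, -0.17 to 0.12 for Eif5a2 and -0.04 to 0.03 for Eif5b. The cause was not tested. At this depth counting error alone gave a median CV of 6.77% in WT and 7.04% in Mettl3 KO hearts over the members, where 6.21% and 5.17% were observed. The chi-square of library pairs given above was taken over 13538 to 14042 genes, so the 2 measures cover different genes and were not set against each other.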
